A study of Homo sapiens with 66 samples.

Results

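The APOBEC3 cytidine deaminases are a family of 7 human genes, APOBEC3A, APOBEC3B, APOBEC3C, APOBEC3D, APOBEC3F, APOBEC3G and APOBEC3H. They were taken by gene symbol, and all 7 were found among the 57992 genes counted in AML cell lines treated with etoposide. APOBEC3A held almost no reads, and each of the other 6 members reached 1 CPM, a read count scaled to library size, in at least 3 untreated cell lines. After etoposide, in 10 cell lines, 27 of the 51 pairs of member and cell line that could be tested were called induced, where 11.1% of all tests of a gene in a cell line were, and 0 were called repressed, where 3.96% were. OCI-AML2, with 0 of 5 called, is not among the 51. Some of the 51 became testable only with their etoposide libraries.

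APOBEC3 enzymes convert cytosine to uracil in single-stranded DNA. They act against retroviruses and mobile genetic elements, and the Vif protein of HIV-1 binds several of them and hands them to a cullin ubiquitin ligase for degradation. In tumour genomes APOBEC3A and APOBEC3B are known as sources of clustered C-to-T and C-to-G mutations, and uracil in DNA is removed by the base excision pathway, which UNG opens. In myeloid cells APOBEC3A is known as an interferon-inducible gene of monocytes, while APOBEC3G and APOBEC3F are best known from T cells.

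RNA came from 11 established AML cell lines, THP-1, OCI-AML3, OCI-AML2, HL-60, NOMO-1, F-36P, NB-4, MONO-MAC-6, KASUMI-1, MV-4-11 and MOLM-13, whose names the sample labels write without hyphens. Each cell line was left untreated, with medium as vehicle, or given etoposide for 24 hours at the concentration that was the IC50 of that cell line, so that the drug concentration differed between cell lines. Etoposide is a topoisomerase II poison that leaves DNA breaks behind. Each of the 22 groups has 3 libraries, each made from pooled wells. The study discarded its etoposide-treated OCI-AML2 libraries in quality control, and OCI-AML2 is therefore given apart after etoposide. Each cell line is a single leukaemia in culture, and p-values within a cell line measure only the spread between its 3 libraries per group. The study's general statement is that experiments had 3 biological replicates, and the labels do not say how the libraries of a group relate to separate cultures.

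Libraries held between 17997404 and 24101670 reads assigned to genes. A gene without reads in the 3 libraries of a group may have had up to about 0.05 CPM, from 0.0479 CPM in MONO-MAC-6 to 0.052 CPM in F-36P, for counting error only. The 3 leukocyte markers PTPRC, SPI1 and CD33 summed to between 230 and 893 CPM in all libraries. F-36P stood apart, with 5 erythroid markers summing to between 639 and 1189 CPM against at most 43.0 CPM elsewhere. CDKN1A, the p53 target that stops the cell cycle, rose in all 10 cell lines, by 1.86 on the log2 scale in MV-4-11 to 5.46 in OCI-AML3, and by 0.73 in OCI-AML2.

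All 7 genes lie on the plus strand of chromosome 22 within 151.3 kb. On GRCh38 the cluster starts with APOBEC3A (ENSG00000128383.12) at chr22:38952741-38963184. APOBEC3B (ENSG00000179750.15) follows at chr22:38982347-38992804, APOBEC3C (ENSG00000244509.3) at chr22:39014257-39020352 and APOBEC3D (ENSG00000243811.7) at chr22:39021113-39033277. APOBEC3F (ENSG00000128394.16) lies at chr22:39040604-39055972, APOBEC3G (ENSG00000239713.7) at chr22:39077067-39087743 and APOBEC3H (ENSG00000100298.15) at chr22:39097224-39104067. No exon of a member overlaps another counted gene on the same strand. APOBEC3B shares 244 bases with APOBEC3B-AS1 on the opposite strand, which had 6 reads over all 66 libraries.

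**Figure D1:**
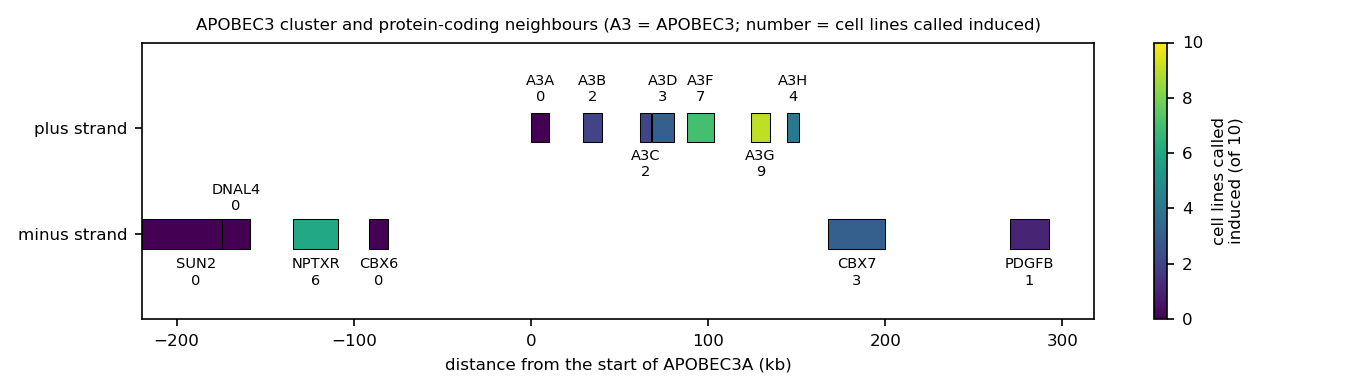
Map of the APOBEC3 cluster and the protein-coding genes within 200 kb of it. The x axis gives the distance from the start of APOBEC3A in kb and the rows give the strand, and the number and colour of each bar give how many of 10 cell lines called the gene induced by etoposide, from 0 for APOBEC3A to 9 for APOBEC3G.

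Each member encodes 1 or 2 copies of a zinc-binding deaminase motif, in which a histidine and a pair of cysteines hold the zinc ion and a glutamate takes part in catalysis. A search of the canonical coding sequences found 1 copy in APOBEC3A, APOBEC3C and APOBEC3H and 2 copies in APOBEC3B, APOBEC3D, APOBEC3F and APOBEC3G. The coding DNA of the motif is shown for the members on which the results turn and for those that share it base for base, since reads from identical stretches cannot be given to one member. Capitals mark the codons of the histidine, the glutamate and the cysteines, and each stretch lies in 1 exon of the plus strand (GRCh38, gencode release 44).
APOBEC3A motif 1, exon 3, chr22:38961420-38961530: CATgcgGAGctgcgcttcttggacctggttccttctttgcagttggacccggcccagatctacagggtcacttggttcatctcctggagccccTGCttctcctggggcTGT
APOBEC3B motif 1, exon 3, chr22:38985833-38985937: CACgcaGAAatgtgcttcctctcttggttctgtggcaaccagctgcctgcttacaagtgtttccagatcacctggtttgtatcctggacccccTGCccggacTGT
APOBEC3B motif 2, exon 6, chr22:38991365-38991475: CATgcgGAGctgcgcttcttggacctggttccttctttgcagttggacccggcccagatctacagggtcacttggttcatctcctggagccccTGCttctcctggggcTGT
APOBEC3C motif 1, exon 3, chr22:39017787-39017891: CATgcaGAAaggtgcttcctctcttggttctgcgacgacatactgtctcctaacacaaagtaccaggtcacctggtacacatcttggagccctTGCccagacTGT
APOBEC3D motif 2, exon 6, chr22:39031715-39031819: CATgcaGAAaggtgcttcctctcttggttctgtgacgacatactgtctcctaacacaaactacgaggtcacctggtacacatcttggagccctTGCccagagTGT
APOBEC3F motif 1, exon 3, chr22:39044962-39045066: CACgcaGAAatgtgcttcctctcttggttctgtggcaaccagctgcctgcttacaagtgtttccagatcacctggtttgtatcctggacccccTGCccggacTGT
APOBEC3F motif 2, exon 6, chr22:39052095-39052199: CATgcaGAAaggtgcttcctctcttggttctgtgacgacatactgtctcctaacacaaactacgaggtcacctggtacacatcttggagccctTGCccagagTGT
APOBEC3G motif 2, exon 6, chr22:39086312-39086416: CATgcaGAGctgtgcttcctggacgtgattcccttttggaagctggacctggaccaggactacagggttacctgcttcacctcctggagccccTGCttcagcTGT
APOBEC3H motif 1, exon 3, chr22:39101246-39101350: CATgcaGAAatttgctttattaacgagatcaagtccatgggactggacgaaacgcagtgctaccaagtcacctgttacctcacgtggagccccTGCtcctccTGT

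The motif of APOBEC3A and the second motif of APOBEC3B have the same 111 bases. The first motifs of APOBEC3B and APOBEC3F have the same 105 bases, as do the second motifs of APOBEC3D and APOBEC3F. APOBEC3C matches the latter pair at 101 of 105 bases. The motifs of APOBEC3G and APOBEC3H are more distant and match each other at 65 of 105 bases. Over whole transcripts, the share of 50-base windows that also occur in a transcript of another counted gene was 26.9% for APOBEC3B, 20.8% for APOBEC3A, 18.7% for APOBEC3D, 11.9% for APOBEC3F, 5.76% for APOBEC3G, 1.21% for APOBEC3C and 0.0% for APOBEC3H. Counts of APOBEC3A, APOBEC3B, APOBEC3D and APOBEC3F are thus the least certain of the family, and those of APOBEC3C, APOBEC3G and APOBEC3H the most certain.

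In untreated cells APOBEC3C was the leading member in all 11 cell lines. Levels of different genes are compared here only per kilobase of exon, as RPKM, which is CPM divided by exon length in kilobases. APOBEC3C made up between 50.1% of the summed family RPKM in MV-4-11 and 88.8% in KASUMI-1. Its mean level over the 11 cell lines was 31.3 RPKM, against 8.81 RPKM for APOBEC3B, 2.84 for APOBEC3G, 1.34 for APOBEC3H, 1.06 for APOBEC3D and 0.579 for APOBEC3F. With the longest transcript as the length in place of all exons, APOBEC3G stood at 5.51 RPKM and APOBEC3C still led everywhere. The summed family level was highest in F-36P at 118 RPKM ± 15.3 (SD, n = 3), followed by NOMO-1 at 91.7 ± 9.01 and MV-4-11 at 84.0 ± 2.04. It was lowest in MONO-MAC-6 at 7.19 RPKM ± 0.457.

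**Figure D2:**
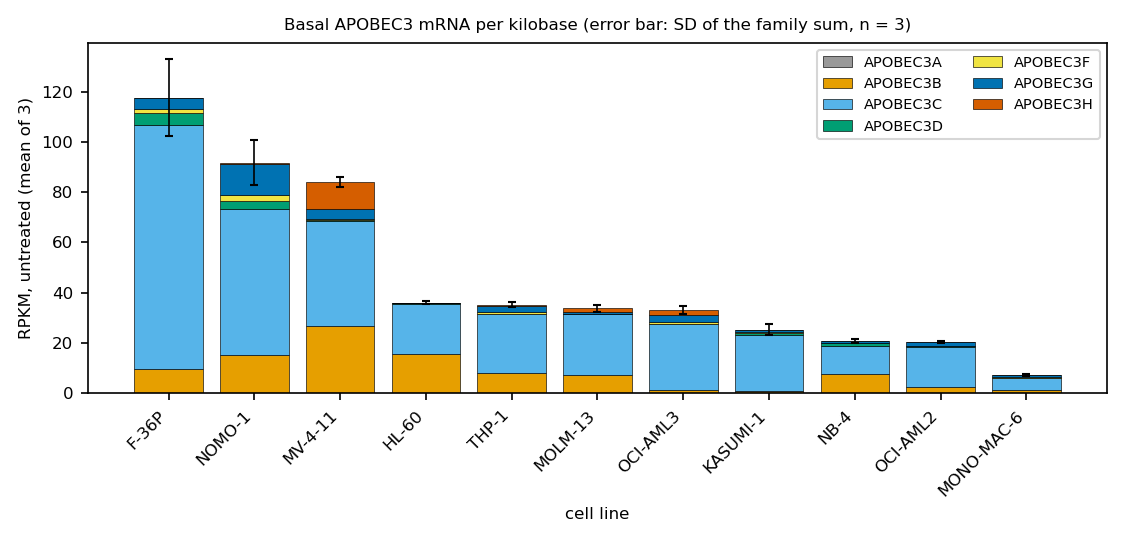
Basal APOBEC3 mRNA in the 11 untreated cell lines. Stacked bars give the mean RPKM of each member over 3 libraries, the y axis starts at 0, and error bars give the SD of the family sum, which falls from 118 RPKM in F-36P to 7.19 RPKM in MONO-MAC-6.

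Basal levels of the 6 expressed members differed between cell lines by edgeR's quasi-likelihood F test over the 33 untreated libraries (adjusted p below 0.05 in 6 of 6 tested). The background share is nearly as high, since 99.4% of the 18130 genes tested passed. Among all genes and pairs of cell lines 66.9% of the tests passed, against 42 of 55 pairs for APOBEC3H, 47 for APOBEC3D, 49 for APOBEC3C and APOBEC3F and 50 for APOBEC3B and APOBEC3G. The order of cell lines was a different one for each member.

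APOBEC3B, a nuclear deaminase, was highest in MV-4-11, with 50.4, 48.4 and 52.3 CPM in the 3 libraries. HL-60 followed with a mean of 29.7 CPM and NOMO-1 with 29.2, and these did not differ beyond their spread (adjusted p = 0.85). F-36P stood at 18.4 CPM, THP-1 at 15.5, NB-4 at 14.6 and MOLM-13 at 13.9, and the neighbours among the last 3 did not differ either. OCI-AML2 had 5.00 CPM, and OCI-AML3 and MONO-MAC-6 had 2.79 and 2.77 CPM, without a difference between them (adjusted p = 1.0). KASUMI-1 was lowest, with 1.27, 1.31 and 1.83 CPM, which is 34.3 times below MV-4-11.

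APOBEC3C, the member with the highest level per kilobase, spanned a range of 20.6 times. F-36P was highest at 256 CPM ± 36.3 and NOMO-1 next at 153 ± 17.7, followed by MV-4-11 at 111 ± 5.14. OCI-AML3, MOLM-13, THP-1, KASUMI-1 and HL-60 lay between 69.2 and 52.0 CPM, and no neighbours in this order differed (adjusted p from 0.054 to 0.68). OCI-AML2 had 41.8 CPM, NB-4 29.5 and MONO-MAC-6 12.5, each below the one before.

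APOBEC3G, the first member found to be a target of Vif, varied the most among the members with reads in every cell line. NOMO-1 was far above the rest, with 61.4, 72.6 and 64.4 CPM. F-36P at 23.5 CPM and MV-4-11 at 22.7 did not differ from each other (adjusted p = 0.77), nor did OCI-AML3 at 16.3 and THP-1 at 13.8 (adjusted p = 0.11). OCI-AML2 had 7.68 CPM, KASUMI-1 5.08, MOLM-13 5.01, MONO-MAC-6 4.396 and NB-4 3.13, and KASUMI-1, MOLM-13 and MONO-MAC-6 could not be ordered. HL-60 closed the order with 0.438, 0.290 and 0.264 CPM, which is 200.1 times below NOMO-1.

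APOBEC3F, a further target of Vif, was also highest in NOMO-1, at 12.8 CPM ± 1.62, with F-36P at 8.64 ± 0.818 and THP-1 at 3.01 ± 0.341. OCI-AML3, MV-4-11, KASUMI-1 and NB-4 lay between 2.15 and 1.25 CPM, where no neighbours differed. MONO-MAC-6 and OCI-AML2 had 0.798 and 0.743 CPM, and MONO-MAC-6 did not differ from NB-4 above it or from OCI-AML2 below it. MOLM-13 had 0.374 CPM and HL-60 0.161, from 10 reads in 3 libraries, without a difference between them (adjusted p = 0.072). APOBEC3D, which acts against HIV-1 to a lesser extent, was highest in F-36P at 12.7 CPM ± 1.32 and NOMO-1 at 8.65 ± 0.735. NB-4 with 2.68 CPM and KASUMI-1 with 2.12 did not differ (adjusted p = 0.19), HL-60 had 1.35, and the other 6 cell lines lay below 1 CPM, from 0.558 in OCI-AML2 to 0.0818 in MONO-MAC-6, and no neighbours among these differed.

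APOBEC3H was expressed in few cell lines. MV-4-11 had 13.3, 14.4 and 12.1 CPM, OCI-AML3 followed with a mean of 2.31 and MOLM-13 with 1.52, and each of these differed from the next. THP-1, NOMO-1 and OCI-AML2 lay between 0.572 and 0.2802 CPM without a difference between neighbours. NB-4 had 1 read in 3 libraries, and F-36P, HL-60, KASUMI-1 and MONO-MAC-6 had 0.

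APOBEC3A was not detectable at this depth beyond stray reads. Over all 66 libraries it had 15 reads out of 1338476771, in 13 libraries and never more than 2 in one. There were 3 reads in the 33 untreated and 12 in the 33 etoposide libraries. APOBEC3A entered no test in any cell line.

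T cell markers were present in NOMO-1, the cell line with the highest APOBEC3G and APOBEC3F. Of the 5 T and NK cell markers, CD3D stood at 156 CPM in untreated NOMO-1 and at 5.69 CPM or less elsewhere, and CD3E at 3.30 CPM. TRAC and NKG7 also had reads in other cell lines, up to 29.9 CPM in HL-60 and 165 CPM in MONO-MAC-6, while CD2 stayed at or below 0.293 CPM in every cell line. Their part in the APOBEC3 levels was not tested.

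Etoposide was then compared with vehicle within each cell line, to ask which members respond to the drug. CPM values from here on were normalised within a cell line. A member was called induced or repressed at a Benjamini-Hochberg adjusted p below 0.05 over all genes tested in the cell line, by edgeR's quasi-likelihood test, and a fold change above 2. In the 10 cell lines other than OCI-AML2, 51 of 70 pairs of member and cell line had enough reads to be tested. The filter on reads could be met by the 3 etoposide libraries alone, for every gene alike. The untreated libraries alone would not have met it for APOBEC3G in HL-60, APOBEC3D in OCI-AML3 and MV-4-11 and APOBEC3F in MOLM-13. The same held for APOBEC3H in NOMO-1 and THP-1. All of these pairs but APOBEC3H in THP-1 were called induced. Of the 51 pairs, 27 were called induced, where 11.1% of all tests of a gene in a cell line were. None was called repressed by this test, by edgeR's exact test or by the Wald test of DESeq2, where 3.96% of all tests were. At an unadjusted p below 0.05, 39 were higher and 1 was lower, for which no share over all tests was counted. At the adjusted p alone the numbers were also 39 and 1, where 27.7% of all tests were higher and 24.4% lower. The log2 fold changes of the 51 had a median of 1.09, against 0.01 for all 143149 tests. The 3 etoposide libraries were above all 3 untreated libraries in 40 of the 51, against 31.2% of all tests. They were below them in 2 and overlapped in 9, and the shares of all tests below or overlapping were not counted. Since RNA came from whole cultures, a change in the share of cells that express a gene and a change in its RNA per cell cannot be told apart.

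Marker genes of other cell types also differed between the groups. The 5 T and NK cell markers in sum were higher in all 3 etoposide libraries than in all 3 untreated ones in 10 of 10 cell lines, from between 1.31 and 1.83 CPM to between 17.6 and 23.5 in KASUMI-1 and from at most 3.89 to at most 16.04 in F-36P. In KASUMI-1 nearly all of this was NKG7, with means of 1.35 and 18.1 CPM, while CD3D had means of 0.139 and 0.0 CPM. CD3D stayed at or below 8.21 CPM in every group outside NOMO-1, and CD2 had 0 reads in both groups of OCI-AML3, MV-4-11, MOLM-13 and MONO-MAC-6. The 5 granulocytic or monocytic markers in sum were higher in 5 cell lines and lower in the other 5. They went from between 1938 and 2774 CPM to between 5584 and 6523 in MOLM-13. In OCI-AML3 they went from between 820 and 854 to between 1768 and 1874. APOBEC3C and APOBEC3H were also higher in these cell lines. The sum was higher in F-36P too, where APOBEC3C had a log2 fold change of -0.51. It was also higher in THP-1, where APOBEC3C and APOBEC3H had 0.15 and 0.20, and in MV-4-11, where they had 0.66 and 1.26. LYZ made up most of the sum in MOLM-13, with means of 1817 and 5129 CPM. There CEBPA had means of 470.5 and 676.8 CPM, ITGAM 44.79 and 187.5, CD14 0.2286 and 0.2424, and MPO 71.1 and 40.51. The 3 leukocyte markers were higher in 9, the 4 B cell markers in 6 and the 4 epithelial or stromal markers in 8 of 10 cell lines, and each of these lists overlapped in the rest. The part of these markers in the APOBEC3 values was not tested.

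APOBEC3G was the most widely induced member. It passed the adjusted threshold in all 10 cell lines and the fold change as well in 9, a count that 0.439% of the 11605 genes tested in at least 9 cell lines reached, and 1.07% of genes reached 8 or more. In HL-60 it had 0.470, 0.310 and 0.284 CPM before and 2.29, 1.73 and 2.46 CPM after etoposide. This is its largest change, a log2 fold change of 2.58 (SE 0.318, adjusted p = 7.44e-05), from the lowest basal level. In HL-60 APOBEC3G met the filter on reads through its etoposide libraries, since the untreated ones had 9, 6 and 5 reads. In MOLM-13 it went from 4.86, 5.14 and 4.44 CPM to 21.3, 21.8 and 20.9, and in OCI-AML3 from 16.2, 17.1 and 15.97 CPM to 63.6, 60.7 and 71.4. These are changes of 4.43 and 3.97 times, with log2 fold changes of 2.15 (SE 0.104) and 1.99 (SE 0.088). NB-4, KASUMI-1 and MONO-MAC-6 rose by 1.91, 1.59 and 1.56 on the log2 scale. MV-4-11, THP-1 and F-36P rose by 1.21, 1.13 and 1.09. NOMO-1, where the basal level was highest, went from 68.6, 80.8 and 72.3 CPM to 99.2, 102.5 and 96.7. Its libraries did not overlap, but the change was 0.43 on the log2 scale (SE 0.087, adjusted p = 0.00129) and below the fold limit. The call in F-36P fell below the fold limit without untreated replicate 3 (0.95) and with no filter on low counts (0.97).

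APOBEC3F was called induced in 7 of the 9 cell lines in which it was tested. Its fold changes were alike across most of them, with log2 values of 1.64 in MV-4-11 and OCI-AML3, 1.60 in KASUMI-1, 1.57 in MOLM-13 and 1.56 in MONO-MAC-6. In MV-4-11 it went from 2.15, 2.28 and 1.82 CPM to 6.31, 6.74 and 6.47, and in MOLM-13, with few reads, from 0.295, 0.247 and 0.536 CPM to 1.05, 0.854 and 1.33. NB-4 followed with 1.19. F-36P was at the fold limit with 1.03 (SE 0.168) and lay between 0.91 and 0.99 with RLE normalization, with no filter, with DESeq2 and without untreated replicate 2 or 3 or etoposide replicate 1 or 3. THP-1 passed the adjusted p alone with 0.75. NOMO-1, again the cell line with the highest basal level, had 12.2, 15.3 and 15.3 CPM before and 17.5, 15.9 and 15.8 after. Its groups did not overlap, but the difference did not pass (log2 fold change 0.20, adjusted p = 0.17). In HL-60 it was not tested, with means of 0.173 and 0.485 CPM.

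APOBEC3D was called induced in 3 of the 7 cell lines in which it was tested. OCI-AML3 rose most, from 0.246, 0.293 and 0.287 CPM to 1.31, 1.39 and 1.38 (log2 fold change 2.28, SE 0.247, adjusted p = 0.000214). KASUMI-1 went from 1.98, 1.73 and 2.63 CPM to 5.33, 6.38 and 4.88, a log2 fold change of 1.39. MV-4-11 was called with 1.31 (SE 0.404), although its groups overlap, with 0.420, 0.285 and 0.625 CPM before and 1.38, 0.518 and 1.46 after. NB-4 and NOMO-1 passed the adjusted p alone, with 0.85 and 0.43. F-36P, which has the highest level, had 0.24 (adjusted p = 0.15) and HL-60 0.11 (adjusted p = 0.76).

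APOBEC3H had the largest change of the family. In MOLM-13 it rose from 1.28, 1.48 and 1.61 CPM to 17.8, 20.2 and 22.03, a log2 fold change of 3.77 (SE 0.148, adjusted p = 4.12e-07) or 13.7 times. In OCI-AML3 it rose 8.14 times, from 2.41, 2.15 and 2.44 CPM to 18.0, 18.4 and 20.7. NOMO-1 went from 0.308, 0.546 and 0.702 CPM to 2.49, 2.09 and 2.93, a log2 fold change of 2.26. MV-4-11, with the highest basal level, had 14.1, 15.5 and 12.9 CPM before and 36.1, 37.5 and 28.3 after, which is a rise of 2.40 times. THP-1 had 0.262, 0.721 and 0.779 CPM before and 0.534, 0.542 and 0.940 after, groups that overlap (log2 fold change 0.20, adjusted p = 0.75). In the other 5 cell lines it was not tested. F-36P had 0 reads before and 11 after etoposide, and MONO-MAC-6 had 0 and 10. In KASUMI-1 and HL-60 it had 0 reads before and 4 after. In NB-4 it had 1 and 6 reads, a ratio of 5.78 when scaled by library size alone, with a 95% counting interval from 0.701 to 266.

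The RefSeq promoter table held an entry for APOBEC3H among the 7 members. The 230 bases before the annotated start of the gene, at chr22:39096994-39097223 on the plus strand (GRCh38.p14), are shown because this gene had the largest induction.
APOBEC3H promoter: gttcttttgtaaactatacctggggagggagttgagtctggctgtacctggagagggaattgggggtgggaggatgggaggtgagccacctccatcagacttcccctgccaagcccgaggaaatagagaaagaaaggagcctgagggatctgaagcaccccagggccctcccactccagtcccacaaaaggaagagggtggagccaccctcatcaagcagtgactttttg
The stretch was searched on both strands for the core of the interferon-stimulated response element, for TTCNNNGAA, the core of STAT sites, for TATAAA, and for the p53 half-site and the NF-kB site by their usual consensus. None of these had a match, so that no base is in capitals. Among 35116 promoter stretches of the same length, 2.72% held the interferon element core, 6.19% TTCNNNGAA, 10.4% TATAAA, 5.12% a p53 half-site and 9.2% an NF-kB site.

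APOBEC3B was called induced in 2 cell lines. KASUMI-1, where its basal level was lowest, rose from 1.27, 1.31 and 1.81 CPM to 19.2, 19.5 and 17.4, a log2 fold change of 3.68 (SE 0.155, adjusted p = 2.68e-07) or 12.8 times. MONO-MAC-6, which did not differ from OCI-AML3 in basal level, rose from 3.06, 2.54 and 3.04 CPM to 9.41, 8.92 and 9.18, a log2 fold change of 1.67 (SE 0.116, adjusted p = 2.03e-07). MV-4-11, NOMO-1, OCI-AML3, HL-60 and F-36P passed the adjusted p alone, with log2 fold changes between 0.61 and 0.86. In MV-4-11, the highest, this meant a step from 53.5, 52.0 and 55.98 CPM to 92.9, 99.8 and 99.9. THP-1 and NB-4 had 0.25 and 0.23 (adjusted p = 0.16 and 0.12). MOLM-13 had 13.7, 13.7 and 12.7 CPM before and 10.9, 12.7 and 12.3 after, a log2 fold change of -0.16 (adjusted p = 0.22).

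APOBEC3C, the most abundant member, was called induced in OCI-AML3 and MOLM-13. In OCI-AML3 it rose from 69.1, 72.8 and 67.2 CPM to 253, 235 and 263, a log2 fold change of 1.84 (SE 0.07, adjusted p = 9.05e-07). In MOLM-13 it rose from 64.3, 61.4 and 58.2 CPM to 145, 150 and 144, a log2 fold change of 1.26. MONO-MAC-6, MV-4-11 and KASUMI-1 passed the adjusted p alone, with 0.94, 0.66 and 0.42. THP-1, NB-4, NOMO-1 and HL-60 did not pass, with 0.15, 0.02, -0.19 and -0.04, and the value in HL-60 was 0.06 when scaled by library size alone. F-36P was the exception in the family. It had 298, 268 and 245 CPM before and 192, 177 and 201 after, which is a log2 fold change of -0.51 (SE 0.113, adjusted p = 0.00303). This is the only fall that passed the adjusted threshold, it is within the fold limit, and with library size alone it was -0.27 (adjusted p = 0.096). Erythroid markers moved in the same cell line, from between 1066 and 1189 CPM in sum to between 639 and 664 CPM, and their part in the APOBEC3C value was not tested.

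The number of members called differed between cell lines. OCI-AML3 had 5 of 6 tested members called, all but APOBEC3B, where 7.18% of its genes were called induced. KASUMI-1 had 4 of 5 (14.6% of its genes), MOLM-13 4 of 5 (8.59%), MV-4-11 4 of 6 (12.5%) and MONO-MAC-6 3 of 4 (8.53%). F-36P had 2 of 5 (24.3%), NB-4 2 of 5 (13.2%), HL-60 1 of 4 (5.34%), NOMO-1 1 of 6 (8.34%) and THP-1 1 of 5 (6.38%). F-36P thus had the largest share of induced genes among the 10 cell lines and 2 induced members. No member was repressed in any cell line, where the share of genes called repressed was 6.67% in F-36P, 6.52% in KASUMI-1, 2.63% in MV-4-11, 4.82% in NB-4 and 4.47% in MONO-MAC-6. It was 4.43% in NOMO-1, 3.46% in THP-1, 3.37% in MOLM-13, 1.24% in HL-60 and 1.36% in OCI-AML3. In OCI-AML2 none of the 5 members tested was called by edgeR's quasi-likelihood or exact test or by DESeq2, and 0.0% of its 13604 genes were. At an unadjusted p below 0.05, 1 member was higher there, APOBEC3C, with 40.5, 41.5 and 43.7 CPM before and 49.8, 48.8 and 52.3 after (log2 fold change 0.26, adjusted p = 0.51).

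With 1 value per cell line, the mean log2 fold change was tested by an exact sign-flip permutation test, two-sided, and p-values were adjusted by Benjamini-Hochberg over the 10588 genes that every one of the 10 fits tested. APOBEC3G had a mean of 1.56 ± 0.624 (SD, n = 10 cell lines), positive in 10 of 10 (exact p = 0.00195, the smallest that the sign flips can give, adjusted p = 0.00991). APOBEC3G entered this test only because its etoposide libraries met the filter on reads in HL-60, where its log2 fold change was largest, 2.58. APOBEC3B had 0.91 ± 1.08, positive in 9 of 10 (exact p = 0.00391, adjusted p = 0.0147). APOBEC3C had 0.46 ± 0.724, positive in 7 of 10 (exact p = 0.084, adjusted p = 0.144), and the mean over cell lines did not pass. A higher mean passed in 17.6% of the genes and a lower mean in 25.7%. The other members were not tested in every cell line.

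The size of the response differed between cell lines for all 6 members tested in 1 fit of the 60 libraries, by the quasi-likelihood F test of the interaction of cell line and treatment, as it did for 74.5% of the 19974 genes. The adjusted p was 8.42e-24 for APOBEC3B, 1.64e-21 for APOBEC3C, 5.19e-12 for APOBEC3G, 9.04e-10 for APOBEC3H, 2.29e-06 for APOBEC3F and 0.000325 for APOBEC3D.

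The members did not share 1 pattern across cell lines. As a description over the cell lines in which both were tested, log2 fold changes of APOBEC3C and APOBEC3D had a Pearson's r of 0.94 (n = 7), those of APOBEC3F and APOBEC3G 0.78 (n = 9) and those of APOBEC3C and APOBEC3F 0.69 (n = 9). APOBEC3B had values near 0 with APOBEC3C (r = 0.02, n = 10) and APOBEC3G (r = -0.07, n = 10). APOBEC3D in OCI-AML3 and MV-4-11, APOBEC3F in MOLM-13 and APOBEC3G in HL-60 met the filter on reads only through their etoposide libraries. Which points entered thus depended on the response itself. Some of these genes share sequence, so that their counts may not be independent, which was not tested. APOBEC3F shared 258 of its 50-base transcript windows with APOBEC3G, 224 with APOBEC3D and 32 with APOBEC3C. APOBEC3C shared 24 of its windows with APOBEC3D. In untreated cells r was highest between APOBEC3F and APOBEC3G (0.87), APOBEC3D and APOBEC3F (0.75) and APOBEC3C and APOBEC3F (0.72), and lowest between APOBEC3D and APOBEC3H (-0.39), over 11 cell lines. Higher basal levels went with smaller responses, with an r of -0.87 for APOBEC3G (n = 10), -0.80 for APOBEC3F (n = 9), -0.69 for APOBEC3D (n = 7), -0.63 for APOBEC3B (n = 10) and -0.37 for APOBEC3C (n = 10). Both values of a point use the same untreated libraries.

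In sum over the family, RPKM rose above the range of the untreated libraries in 8 of the 10 cell lines. OCI-AML3 went from 33.4, 34.4 and 32.1 RPKM to 126, 119 and 134, which is 3.79 times. MOLM-13 changed by 2.53 times, MONO-MAC-6 by 2.33, KASUMI-1 by 1.82 and MV-4-11 by 1.80. HL-60, THP-1 and NB-4 changed by 1.25, 1.22 and 1.21 times. NOMO-1 and F-36P overlapped before and after, with ratios of 1.10 and 0.865. The leading member stayed APOBEC3C in 9 of 10 cell lines, and in HL-60 APOBEC3B led after etoposide with 54.96% of the family RPKM. In MOLM-13 the share of APOBEC3H went from 3.59% to 19.5%, and in KASUMI-1 that of APOBEC3B from 3.06% to 21.6%.

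Genes known to drive or accompany APOBEC3 expression were counted in the same 10 cell lines from lists made by their known roles. Of 10 p53 targets, all 10 were tested and 42 of 94 tests (44.7%) were called induced, with a median log2 fold change of 0.88, and none was repressed. Over all genes, 11.1% of the tests were called induced and 3.96% repressed. They included FAS, a death receptor, induced in 7 cell lines, and TP53INP1, a stress-induced autophagy gene, in 7. In OCI-AML3, 10 of 10 were induced, and in MOLM-13 8 of 10, against 1 of 10 in THP-1 and 1 of 8 in HL-60 and NB-4. OCI-AML3 and MOLM-13 are also the cell lines in which APOBEC3C was called and APOBEC3H rose most. APOBEC3H also rose by 2.26 on the log2 scale in NOMO-1, where the median of this list was 0.615. Over 10 cell lines the log2 fold change of APOBEC3C had an r of 0.82 with the median of this list, that of APOBEC3G 0.193 and that of APOBEC3B -0.05. For APOBEC3D it was 0.796 (n = 7) and for APOBEC3F 0.505 (n = 9), with points among them that were tested only through etoposide libraries. With CDKN1A alone r was 0.19 for APOBEC3C and 0.43 for APOBEC3G. The part of p53 in the members' changes was not tested.

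Of 13 interferon-stimulated genes and their factors, 75 of 127 tests (59.1%) were called induced and none repressed, with a median of 1.19. The shares over all genes were 11.1% and 3.96%. OAS1 and OAS2, sensors of double-stranded RNA, and IRF7, an interferon regulatory factor, were induced in 8 cell lines each. F-36P had all 13 induced with a median of 4.18 and OAS1 at 5.34, and its APOBEC3G and APOBEC3F rose by 1.09 and 1.03. OCI-AML3 and MOLM-13 had 3 of 12 and 2 of 13 of these genes induced. The list's median had an r of -0.47 with APOBEC3C, -0.36 with APOBEC3G and 0.08 with APOBEC3B (n = 10). With APOBEC3D r was -0.234 (n = 7) and with APOBEC3F -0.046 (n = 9). The part of interferon in the members' changes was not tested.

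Of 9 NF-kB subunits and feedback genes, 30 of 88 tests (34.1%) were called induced and 1 repressed, where 11.1% and 3.96% of all tests were. RELB, a subunit of the alternative NF-kB pathway, was induced in 8 cell lines and NFKB2, its partner's precursor, in 6. TNFAIP3, a feedback inhibitor, was induced in 5 and repressed in NB-4, by -1.27. KASUMI-1 and MONO-MAC-6, in which APOBEC3B was called, had the highest medians, 1.73 and 1.69, followed by HL-60 with 1.51, where APOBEC3B changed by 0.66. The r of this median was 0.69 with APOBEC3B, -0.33 with APOBEC3C and -0.04 with APOBEC3G (n = 10). With APOBEC3D r was -0.495 (n = 7) and with APOBEC3F 0.016 (n = 9). The points of these correlations are cell lines that received different concentrations, and each point takes both values from the same libraries. The part of NF-kB in the members' changes was not tested.

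Of 13 relatives and other base deaminases, 9 were tested. Those without enough reads in any cell line included APOBEC1, APOBEC2 and APOBEC4. Of 78 tests, 7 (9.0%) were called induced and 2 repressed, with a median of 0.11. Over all genes 11.1% of the tests were called induced and 3.96% repressed. CDA, which deaminates free cytidine, was induced in 4 of 7 cell lines, most in MV-4-11 with a log2 fold change of 3.61. Its means there were 0.0919 CPM before and 1.16 after etoposide, and in MOLM-13 0.278 and 0.713. In both of these cell lines CDA met the filter on reads through the etoposide libraries. ADARB2 was induced in KASUMI-1, the only cell line in which it was tested. ADAT2, a tRNA adenosine deaminase subunit, was repressed in F-36P and KASUMI-1, by -1.21 and -1.02.

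Of 20 genes of uracil excision and its repair, 200 tests gave 6 induced (3.0%) and 6 repressed calls. Among all tests the shares were 11.1% and 3.96%. UNG, the main uracil glycosylase, was repressed in F-36P and MOLM-13, by -1.27 and -1.02, and it was lower at the adjusted threshold in 7 of 10 cell lines and higher in HL-60, at 0.33. LIG3, a ligase of base excision repair, was lower at that threshold in all 10 and past the fold limit in NB-4, at -1.11. Of all tests of a gene in a cell line, 24.4% were lower and 27.7% higher at that threshold. SAMHD1, which hydrolyses nucleotide precursors of DNA, was induced in 4, up to 2.08 in F-36P.

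The 12 DREAM and proliferation genes had 5 induced (4.2%) and 6 repressed calls among 120 tests, with a median of -0.04. Over all genes 11.1% of the tests were called induced and 3.96% repressed. E2F1, which drives entry into S phase, was repressed in MOLM-13 at -1.01 and induced in HL-60 at 1.202. LIN37, a subunit of DREAM, was induced in F-36P and NB-4 at 1.08 and 1.00, and CCNB1, the mitotic cyclin, was repressed in F-36P and MOLM-13 at -1.22 and -1.19. The 6 partners through which Vif marks APOBEC3 proteins for degradation had 0 calls among 60 tests, with a median of -0.15. Their scaffold CUL5 lay between -0.39 and 0.16, ELOC between -0.48 and 0.31 and RNF7 between -0.49 and 0.10. At the adjusted threshold alone, CUL5 was lower in 4 cell lines, RNF7 in 5, and ELOC in 7 and higher in 1. Of all tests, 24.4% were lower and 27.7% higher in this way.

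The protein-coding neighbours of the cluster did not all move with it. Before the cluster, NPTXR, a pentraxin receptor gene at chr22:38818452-38844028, was induced in 6 of 8 cell lines, up to 2.73 in KASUMI-1. In KASUMI-1 its means were 0.159 CPM before and 1.08 after, and it met the filter on reads through the etoposide libraries. SUN2 and DNAL4 had 0 calls, although DNAL4 was higher at the adjusted threshold in 6 of 10 cell lines and lower in none. SUN2 was lower at that threshold in 5 cell lines and higher in 1. CBX6, the nearest gene on this side at chr22:38861422-38872249, was lower at the adjusted threshold in 7 cell lines and called in none. After the cluster, CBX7 at chr22:39120167-39152680 was induced in F-36P, KASUMI-1 and NB-4, at 1.24, 1.62 and 1.23. PDGFB was tested in F-36P alone and called there, with means of 0.0749 CPM before and 0.552 after etoposide. In all, 10 of 49 tests of neighbours (20.4%) were called induced, 6 of them for NPTXR, where 11.1% of all tests were. At the adjusted threshold alone, 27.7% of all tests were higher and 24.4% lower.

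The genes outside the family whose basal pattern over the 11 untreated cell lines was most like a member's were named by their Pearson's r, out of 13669 genes averaging 1 CPM or more. For APOBEC3C these were POLDIP3 (r = 0.90) and XRCC6 (r = 0.89), followed by the unnamed ENSG00000240291.1 (r = 0.89). For APOBEC3G they were CLCN4, EPN1 and DDHD2, with an r from 0.88 to 0.85, and for APOBEC3B POLE2, NHLRC4 and JMJD8, from 0.88 to 0.87. The genes most like APOBEC3F included MAILR and NBEA (0.92). APOBEC3D was most like ZNRF2P2, FOXC1 and CCDC69 (0.947 to 0.925), and APOBEC3H most like LAMP5-AS1, FDXR and C12orf56 (0.91 to 0.87). Each of these values rests on 11 points that share the normalization.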

How the data were processed

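RNA of 11 AML cell lines was sequenced, with 3 libraries per cell line without drug and 3 after etoposide (24 hours). Per the methods and the submitters' processing notes, libraries from a stranded mRNA kit were sequenced single-end, checked with FastQC 0.11.5 and aligned with STAR 2.5.3a to GRCh38, and edgeR 3.20.1 was used. The authors deposited raw read counts per gene for each library, as a single count column from STAR. Which strand setting that column holds is not given in the sources used here, so reads of a gene and of an antisense partner may not be told apart.

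Genes were kept with filterByExpr (minimum count 10, minimum total 15), scaled by TMM and tested with edgeR 4.0.16 (quasi-likelihood test) in R 4.3.3, with Benjamini-Hochberg adjustment over all genes tested. CPM was computed with TMM library sizes, and RPKM with the exon union of gencode release 44. DESeq2 1.42.0 was an alternative. The model was tested on simulated data. Figures and summaries used Python 3.11.15. Members and gene lists were chosen with earlier results of these data known. From each list up to 3 genes called in the most cell lines were named, together with all members and the 3 genes most like each member in untreated cells. Some genes that this rule or a list holds are not reported here. A replicate number was taken to pair libraries where every correlation of same-numbered deviations was over 0.1, which held in 4 cell lines (OCI-AML2, NB-4, MOLM-13 and MONO-MAC-6) and not in 7. Intervals and floors cover counting error only.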

Additional observations from a re-analysis of the deposited data

Results flagged for a closer look

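APOBEC3B in KASUMI-1 stood apart from the other cell lines. Its log2 fold change of 3.68 lay above the next, 1.67 in MONO-MAC-6, by a gap that was 0.524 of the whole range over 10 cell lines. Of 6 members examined in this way it was the only one to pass Dixon's limit, which chance passes in about 1 of 20 groups.

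The response of each expressed member differed between cell lines by the interaction test, with an adjusted p of 8.42e-24 for APOBEC3B, 1.64e-21 for APOBEC3C, 5.19e-12 for APOBEC3G, 9.04e-10 for APOBEC3H, 2.29e-06 for APOBEC3F and 0.000325 for APOBEC3D by edgeR's quasi-likelihood test. The same test passed in 74.5% of all genes.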

How the results depend on the processing

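Of 760 values of a member in a cell line that were recomputed under alternatives, 0 changed direction with a call, 9 lost a call and 2 gained one. The 27 induced calls became 16 when a mean of at least 5 CPM was required, and lay between 25 and 27 when each replicate was left out in turn. The filter at 5 CPM left fewer pairs to test. None of the 37 values it kept, OCI-AML2 included, changed its call. Other normalizations, tests and filters and 1 fit over all libraries gave between 26 and 31. The 0 repressed calls became 1, APOBEC3C in F-36P, with the adjusted p alone. With the longest transcript as length, APOBEC3G had 5.51 RPKM. With library size alone, APOBEC3C in MONO-MAC-6 (1.06) and APOBEC3D in NB-4 (1.05) were also called, and the median of all genes lay higher by 0.249 in F-36P and 0.205 in NB-4. The numbers of members that differed between cell lines, in basal level and in response, were 6 under every alternative run. Of 378 counts of calls for named list genes, 339 stayed within 1.5 times.

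With the replicate number as a block, 27 calls were induced, and the block changed no member's call in any cell line.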
